A study of Mus musculus with 8 samples.

Results

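Retinoids are made from vitamin A in successive steps, and the 9 genes described here stand at several of them. Retinol enters cells through the receptor Stra6, is oxidised to retinal, and retinal is oxidised to retinoic acid by retinaldehyde dehydrogenases of the Aldh1a family. Retinoic acid is carried in the cytoplasm by Crabp1 and Crabp2, is cleared by Cyp26 enzymes, and binds nuclear receptors such as Rarb, whose own gene is a textbook target of retinoic acid. In embryos, Hedgehog and retinoic acid signalling shape many of the same tissues, including limb and neural tube.

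The genes were Aldh1a1, Aldh1a2, Aldh1a3, Aldh1a7, Rarb, Cyp26b1, Crabp1, Crabp2 and Stra6, chosen by name with their FPKM values (fragments mapped to a transcript, scaled by its length and by the fragments mapped in the sample) in these samples already known. Each took the value of the deposited locus that best overlapped the annotated mm9 gene, or else the span of a transcript of it. The shared length had to be at least 0.5 of the joint length. Of the 9 genes, 8 had such a locus in all 8 samples, and Aldh1a1 had one in 5. In all, 20197 genes had a value in every sample. A filter of at least 1 FPKM in at least 2 samples left 10282 genes, among them Aldh1a7, Cyp26b1, Crabp1 and Crabp2, while Aldh1a2, Aldh1a3, Rarb and Stra6 lay under it. Because the genes were chosen with these values known, their levels and changes are a description and carry no test.

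The cells were NIH3T3, an immortal line of mouse embryo fibroblasts in which Hedgehog ligand switches on Gli1. They were transfected with the empty plasmid pcDNA3.1 or with pcDNA3.1 carrying Esrrb, an orphan nuclear receptor, and were selected with zeocin at 150 ug/ml for 3 weeks. Cells were pooled after 2 transfections. Whether cells were pooled within each transfection or across both, and so whether the 2 samples of a group came from separate transfections, is not clear from the sources used here. Confluent cells were kept for 48 h in medium with 5% newborn calf serum, with either conditioned medium holding Hedgehog ligand (Hh-CM, diluted 1:100) or vehicle medium. Hh-CM came from cells carrying a Sonic Hedgehog transgene. The vehicle was medium, at the same dilution, from cultured cells of the same line without the transgene. The groups, with 2 samples each, were Control (empty vector, vehicle), Hh-CM (empty vector, Hh-CM), Esrrb (Esrrb vector, vehicle) and Esrrb+Hh-CM (Esrrb vector, Hh-CM). Retinol and retinoic acid were not added, and what the serum held was not measured here.

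The samples carried the marks of Hedgehog treatment and of fibroblasts. Gli1, the transcription factor at the end of the pathway, lay between 0.0217 and 0.106 FPKM without Hh-CM and between 26.8 and 34.8 FPKM with it, while Hhip, another known target, was listed at 0 in every sample. Summed FPKM of 8 fibroblast markers lay between 5479 and 6385, but single markers among them differed between groups. Thy1 had 87.3 to 97.8 FPKM without Hh-CM and 385 to 551 FPKM with it. Fn1 had 545 and 491 FPKM in Control and 336 and 279 FPKM in Esrrb. Of 4 epithelial markers, Epcam and Krt18 were listed at 0 in every sample. Krt8 had at most 0.0916 FPKM and Cdh1 at most 0.0289 FPKM. Summed FPKM of 3 endothelial markers was 0.0812 to 0.143 without Hh-CM and 1.19 to 1.67 with it, most of it Tek. Summed FPKM of 3 blood cell markers was 1.09 to 1.96 without Hh-CM and 1.61 to 2.78 with it, most of it Cd68. The others moved otherwise. Ptprc had 0.225 to 0.265 FPKM in the empty-vector line and 0.0133 to 0.059 FPKM in the Esrrb line. Csf1r had 0.087 to 0.14 FPKM without Hh-CM and 0.0229 to 0.097 FPKM with it. Adipoq was listed at 0 throughout, and the 3 adipocyte markers together, nearly all Fabp4, summed to 8.47 to 9.34 in Control, 3.96 to 4.82 in Hh-CM, 3.81 to 3.85 in Esrrb and 1.66 to 2.31 in Esrrb+Hh-CM. Plin1 went the other way with Hh-CM. It had 0.0754 and 0 FPKM in Control, 0.204 and 0.171 FPKM in Hh-CM, 0 in both Esrrb samples, and 0.313 and 0.203 FPKM in Esrrb+Hh-CM. The part of these marker differences in the results that follow was not tested. The Esrrb gene was listed at 0 FPKM in all 4 samples labelled as carrying the Esrrb vector and in both Control samples, and at 0.0281 and 0.0203 FPKM in Hh-CM. The values therefore show no transgene RNA at the mouse gene, and the species of the insert is not given in the sources used here. The study reports Esrrb protein, by Western blot, in cells transfected with the Esrrb vector. In the RNA values, every difference ascribed below to the Esrrb vector or Esrrb line rests on the sample labels. Depth, read from the smallest steps of the FPKM values, ranged from 0.743 to 1.54 times that of Control 1.

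Cyp26b1, the enzyme that oxidises retinoic acid to inactive products, was high wherever Hh-CM was given. Its gene lies on chromosome 6 of mm9, from 84521938 to 84543740 on the minus strand. Cyp26b1 had 1.63 and 1.88 FPKM in Control and 1.78 and 1.77 FPKM in Esrrb. With Hh-CM it had 12.0 and 14.3 FPKM in the empty-vector line and 12.2 and 12.5 FPKM in the Esrrb line. All 4 samples with Hh-CM stood above all 4 without, and within each of these sets the vector groups overlapped.

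On the scale of log2(FPKM + 0.1), on which all changes below are given, Cyp26b1 was 2.84 ± 0.11 (SE) higher in Hh-CM than in Control, which is 7.14-fold. In the Esrrb line the difference was 2.73 ± 0.11, or 6.64-fold. Between the vector lines it differed by 0.02 ± 0.11 with vehicle and by -0.08 ± 0.11 with Hh-CM. The order of the group means was Hh-CM, Esrrb+Hh-CM, Esrrb and Control, in which the first pair and the last pair each lay within their SEs of one another.

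The promoter of Cyp26b1 is shown because this was the member with the highest fold change. Distances are from the RefSeq start. In every sample the deposited locus reached to 84543902, so part of the window below lay inside that locus. The 250 bases before the start, taken from RefSeq (GRCm38.p6) and found once, by exact match, at chr6:84543805-84544054 of mm9 on the minus strand, read as follows, with the letters TATAAA in capitals, from 139 to 134 bases before the start.
Cyp26b1: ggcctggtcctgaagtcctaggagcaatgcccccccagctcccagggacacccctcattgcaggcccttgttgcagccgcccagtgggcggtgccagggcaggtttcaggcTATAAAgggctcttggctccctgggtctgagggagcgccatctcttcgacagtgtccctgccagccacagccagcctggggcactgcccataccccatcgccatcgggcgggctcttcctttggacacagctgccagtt

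Neither the GLI letters GACCACCCA nor the estrogen-related receptor letters TCAAGGTCA occurred on either strand of this window. Among 32851 promoters of the same length, 0.225% held the first, 0.387% the second and 12.4% held TATAAA on either strand. RefSeq promoters were at hand for 7 of the 9 genes, and none of their 11 windows held the GLI or the estrogen-related receptor letters.

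**Figure D1:**
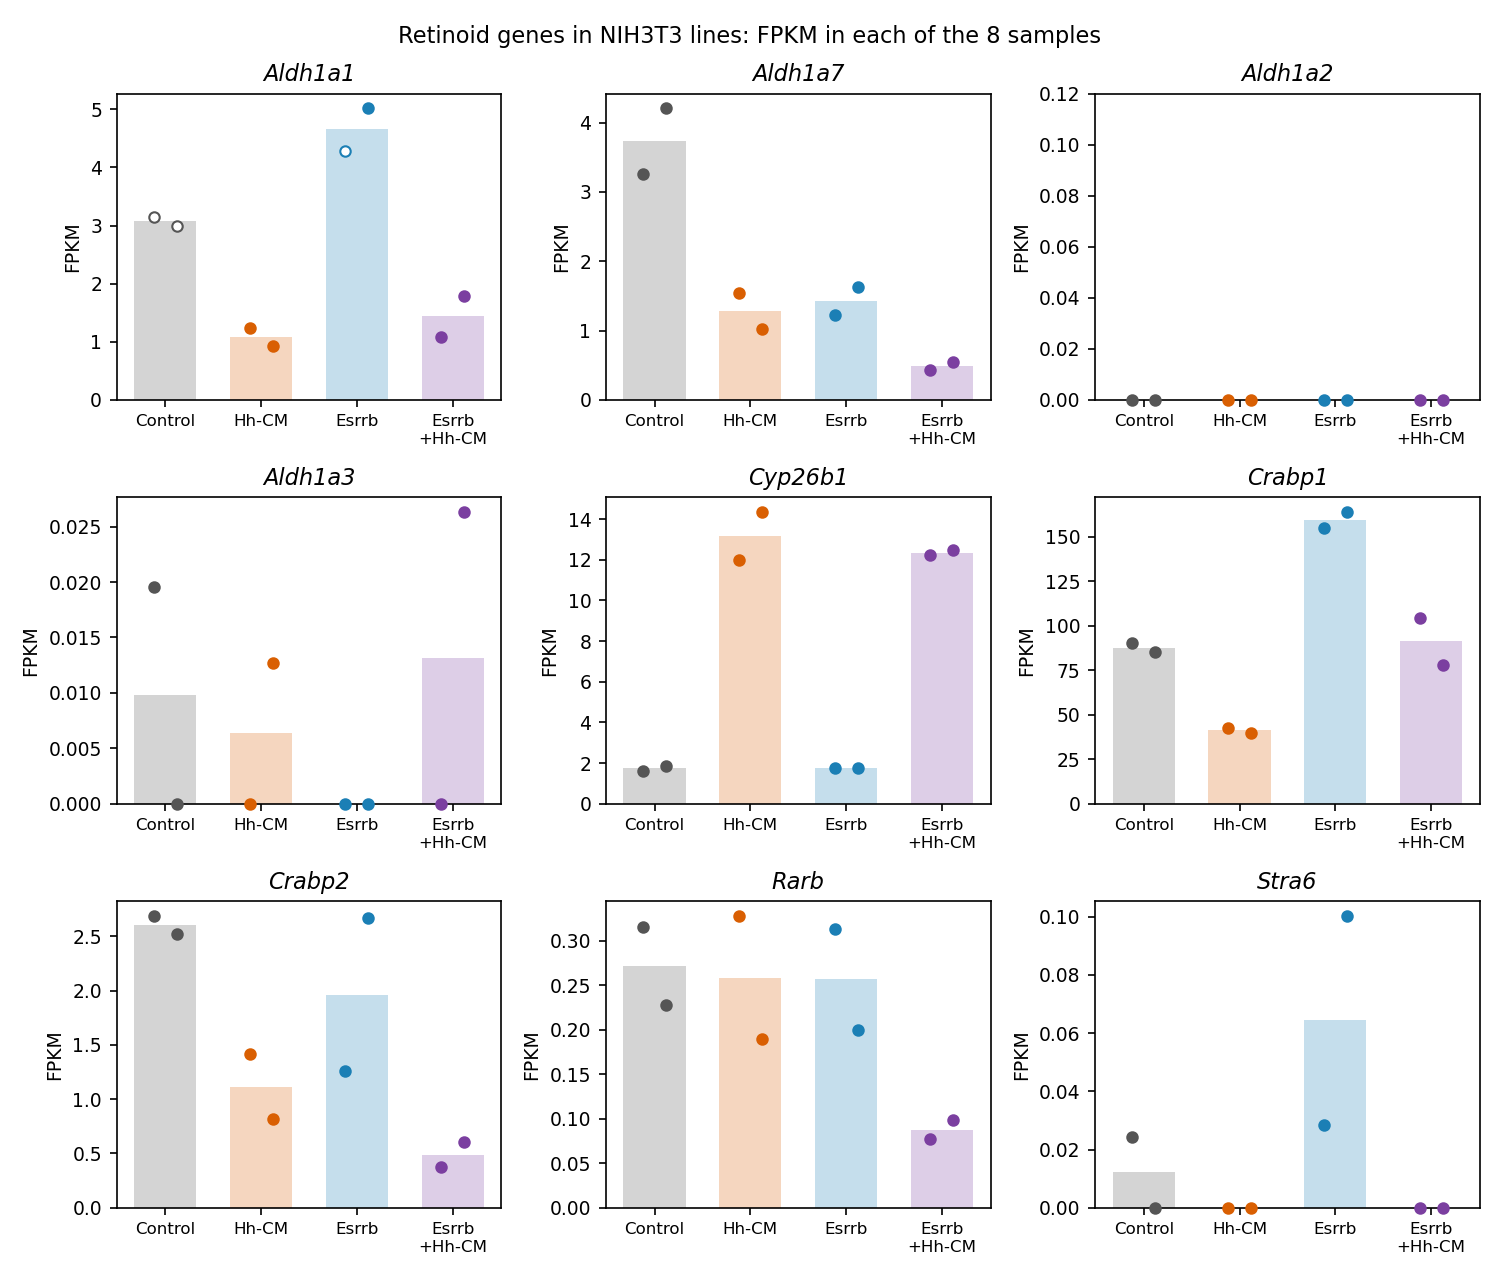
FPKM of the 9 retinoid genes in each of the 8 samples, with 1 panel per gene and its own linear axis from 0. Points are samples, bars are means of 2 samples, and open points mark the 3 samples in which Aldh1a1 was listed only as part of a longer locus. Cyp26b1 lies near 12 to 14 FPKM in both groups with Hh-CM and under 2 in the others, Aldh1a7 is lowest with both treatments, and Aldh1a2 is at 0 throughout.

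The Aldh1a genes were present at low levels or not at all, and whether their enzymes made retinoic acid in these cells was not measured. Aldh1a1, which oxidises retinal and other aldehydes, lies on chromosome 19 from 20676451 to 20717952 on the plus strand. Its closest relative Aldh1a7 lies beyond its 3′ end, from 20767443 to 20802052 on the minus strand, with 49.5 kb between the 2 genes.

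Aldh1a7 had 3.26 and 4.21 FPKM in Control, 1.54 and 1.03 FPKM in Hh-CM, 1.22 and 1.63 FPKM in Esrrb and 0.426 and 0.543 FPKM in Esrrb+Hh-CM. Both Control samples stood above all others and both Esrrb+Hh-CM samples below all others, while Hh-CM and Esrrb overlapped. Since a value for a gene with a single transcript model is a whole multiple of what 1 read is worth, the reads behind it could be recovered. They were 97 and 147 in Control, 51 and 47 in Hh-CM, 31 and 47 in Esrrb and 12 in each Esrrb+Hh-CM sample. Aldh1a7 was thus 2.80-fold lower with Hh-CM, 2.52-fold lower with the Esrrb vector and 6.55-fold lower with both. The log2 changes were -1.48, -1.33 and -2.71, each ± 0.27 (SE). The change with Hh-CM was -1.38 ± 0.27 in the Esrrb line, and the difference between the lines was 0.11 ± 0.38.

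Aldh1a1 was lower with Hh-CM too, but not lower with the Esrrb vector. Its locus had the annotated bounds in 5 samples. In these, Aldh1a1 had 1.23 and 0.931 FPKM in Hh-CM, 5.02 FPKM in Esrrb 2, and 1.08 and 1.79 FPKM in Esrrb+Hh-CM, from 40, 42, 143, 30 and 39 reads. In both Control samples and in Esrrb 1 the only locus over the gene began 109 kb before it, within or beside an upstream non-coding locus, and had 3.15, 3.0 and 4.29 FPKM. In the 5 samples where that upstream locus (E030003E18Rik) was listed by itself it had at most 9 reads and 0.655 FPKM. Adding it to Aldh1a1 gave 1.48 and 0.977 FPKM in Hh-CM, 5.68 FPKM in Esrrb 2, and 1.08 and 1.89 FPKM in Esrrb+Hh-CM.

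With either account, every sample given Hh-CM lay below every sample given vehicle, and both Esrrb samples lay above both Control samples. With the longer loci taken as they are, a choice made after seeing the data, Aldh1a1 was 2.71-fold lower with Hh-CM in the empty-vector line and 3.17-fold lower in the Esrrb line, with log2 changes of -1.44 and -1.67, each ± 0.26 (SE). With the Esrrb vector it differed by 0.58 ± 0.26 in vehicle and by 0.35 ± 0.26 in Hh-CM, where Aldh1a7 differed by -1.33 and -1.23.

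**Figure D2:**
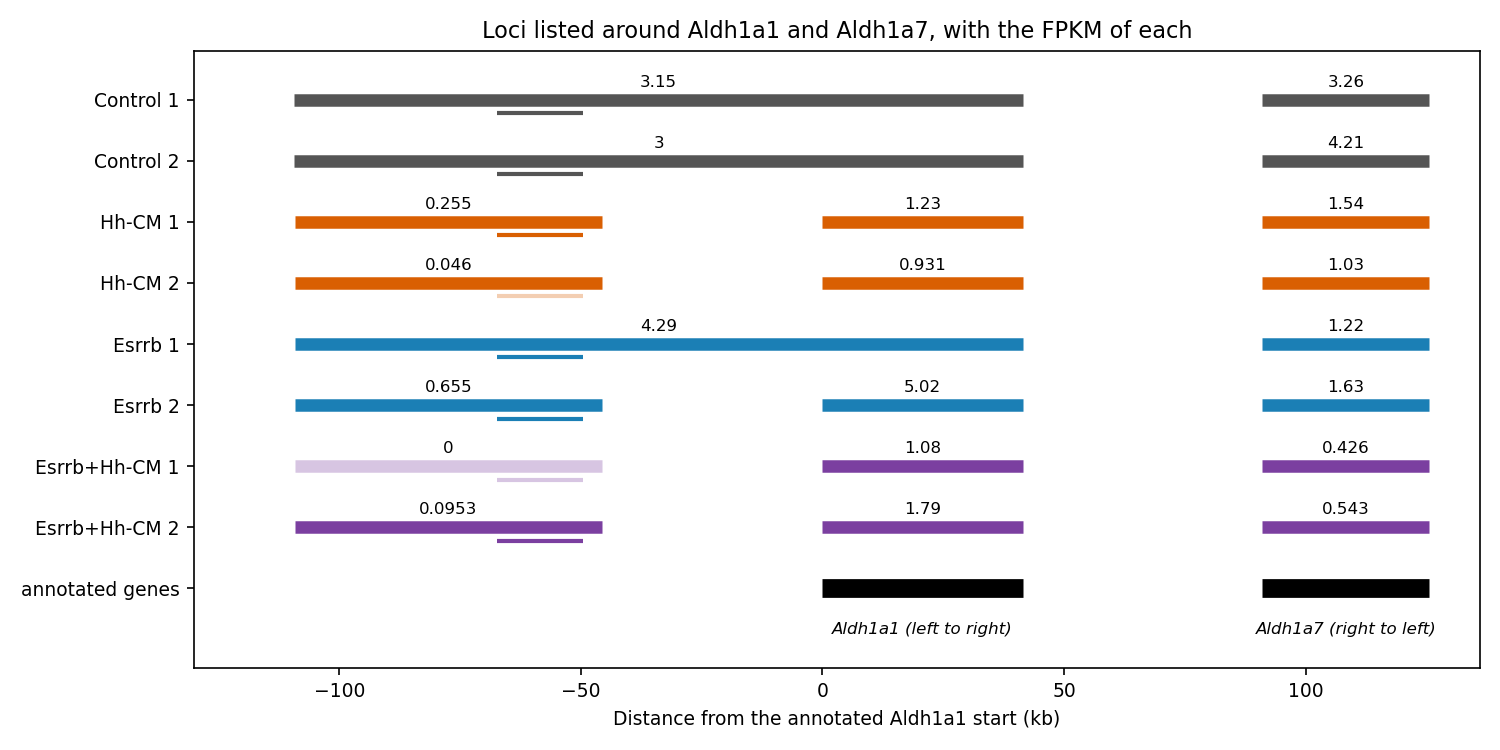
Loci listed around Aldh1a1 and Aldh1a7 in each sample, by distance from the annotated Aldh1a1 start in kb, with the FPKM of each thick bar above it. Thin bars are a small locus inside the upstream one, pale bars are at 0 FPKM, and black bars are the annotated genes. In Control 1, Control 2 and Esrrb 1, Aldh1a1 and the upstream locus form a single bar from -109 to 41.5 kb.

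The paralogs are near in sequence. Their coding sequences, both 1506 bases long in the mm9 annotation, were 91.6% identical, against 67.5% to 69.0% between Aldh1a1 and Aldh1a2 or Aldh1a3. Of all 50-base windows of the Aldh1a1 transcript, 7.53% also occurred in that of Aldh1a7. Reads from such windows cannot be assigned to a single gene, so that part of the 2 values is uncertain. The 250 bases before each start, from RefSeq and found by exact match in mm9 at chr19:20676208-20676457 on the plus strand and chr19:20802047-20802296 on the minus strand, are shown because the genes shared the change with Hh-CM and not that with the vector. Capitals mark the longest run they share, of 65 bases, which ends 30 bases before the start in both.
Aldh1a1: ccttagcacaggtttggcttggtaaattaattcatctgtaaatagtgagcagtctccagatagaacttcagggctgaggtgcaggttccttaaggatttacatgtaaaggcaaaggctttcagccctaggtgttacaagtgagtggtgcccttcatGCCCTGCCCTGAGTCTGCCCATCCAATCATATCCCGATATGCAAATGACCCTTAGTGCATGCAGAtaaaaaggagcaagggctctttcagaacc
Aldh1a7: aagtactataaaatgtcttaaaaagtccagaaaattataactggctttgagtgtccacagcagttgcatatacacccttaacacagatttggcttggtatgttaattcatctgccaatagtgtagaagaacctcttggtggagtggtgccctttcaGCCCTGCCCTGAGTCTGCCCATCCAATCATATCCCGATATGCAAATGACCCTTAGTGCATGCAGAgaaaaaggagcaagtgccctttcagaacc

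Over the whole 250 bases the 2 promoters were 65.4% identical. The shared run holds the octamer ATGCAAAT from 56 to 49 bases before the start and CCAAT from 72 to 68 bases before it, and on either strand these occurred in 1.60% and 33.8% of all promoters. RefSeq also lists an upstream start for Aldh1a1, at position 20567073 of chromosome 19 in mm9, and the longer locus of Control 1 began at 20567147.

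The other Aldh1a genes were scarcely seen. Aldh1a2, the main enzyme of retinoic acid synthesis in the early embryo (chromosome 9, 71063596 to 71144050, plus strand), was listed at 0 in all 8 samples. Aldh1a3 (chromosome 7, 73535778 to 73572403, minus strand) had 1 read in each of Control 1, Hh-CM 2 and Esrrb+Hh-CM 2, which gave 0.0195, 0.0127 and 0.0263 FPKM, and was listed at 0 in the other samples. Stra6, the receptor for retinol bound to its serum carrier (chromosome 9, 57911595 to 58001803, plus strand), had 0.0244 FPKM in Control 1, 0.0286 and 0.10 FPKM in Esrrb, and was listed at 0 in the other samples. The deposited Stra6 locus began at 57976895 and so covered only part of the annotated gene. No difference between groups could be detected at this depth for any of the 3.

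The cytoplasmic carriers differed widely in level and changed in unlike ways. Crabp1 (chromosome 9, 54612555 to 54620917, plus strand) was by far the most abundant of the 9 genes. It had 90.4 and 85.1 FPKM in Control, 42.8 and 39.7 FPKM in Hh-CM, 155 and 164 FPKM in Esrrb and 105 and 78.0 FPKM in Esrrb+Hh-CM. Hh-CM was lowest and Esrrb highest without overlap, while Control lay within the range of Esrrb+Hh-CM.

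Crabp1 was 2.12-fold lower with Hh-CM in the empty-vector line (log2 change -1.09 ± 0.14, SE) and 1.77-fold in the Esrrb line (-0.82 ± 0.14). With the Esrrb vector it was 1.82-fold higher in vehicle (0.86 ± 0.14) and 2.19-fold higher in Hh-CM (1.13 ± 0.14). With both treatments it differed from Control by 0.04 ± 0.14, and that value was -0.17 without Esrrb+Hh-CM 1 and 0.25 without Esrrb+Hh-CM 2.

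Crabp2, which delivers retinoic acid to its receptors (chromosome 3, 87752588 to 87757298, plus strand), was low. It had 2.69 and 2.52 FPKM in Control, 1.41 and 0.814 FPKM in Hh-CM, 1.26 and 2.66 FPKM in Esrrb and 0.378 and 0.603 FPKM in Esrrb+Hh-CM. Both Esrrb+Hh-CM samples lay below all others, while the Esrrb samples spanned from Hh-CM to Control. The locus reached beyond the annotated gene in Hh-CM 1 and Esrrb 2, the higher sample of each pair, with overlaps of 0.581 and 0.627, and the part of these bounds in the values was not tested. The Esrrb+Hh-CM values rested on 4 and 5 reads, that of Control 1 on 30. Against Control, Crabp2 was 4.67-fold lower with both treatments (log2 change -2.22 ± 0.42, SE), 2.30-fold lower with Hh-CM (-1.20 ± 0.42) and 1.39-fold lower with the vector (-0.48 ± 0.42). The last value was 0.03 without Esrrb 1 and -0.99 without Esrrb 2. The coding sequences of Crabp1 and Crabp2 were 70.8% identical and their transcripts shared no window of 50 bases.

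Rarb, a receptor and textbook target of retinoic acid, was near the limit of detection in every group. The gene spans chromosome 14 from 17263356 to 17651381 on the minus strand, and the deposited locus covered its shorter transcripts only. Rarb had 0.316 and 0.228 FPKM in Control, 0.328 and 0.189 FPKM in Hh-CM, 0.314 and 0.20 FPKM in Esrrb and 0.0769 and 0.0981 FPKM in Esrrb+Hh-CM. The first 3 groups overlapped and had between 8 and 15 reads a sample, and each Esrrb+Hh-CM sample had 3 reads and lay below all others. Rarb is not among the genes whose change was fitted, since it had at least 1 FPKM in no sample.

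Its promoter is shown because it holds the kind of element through which retinoic acid receptors are known to act. In this window, at chr14:17407991-17408240 of mm9 on the minus strand, capitals mark a direct repeat of half-sites set 5 bases apart, from 53 to 37 bases before the start.
Rarb: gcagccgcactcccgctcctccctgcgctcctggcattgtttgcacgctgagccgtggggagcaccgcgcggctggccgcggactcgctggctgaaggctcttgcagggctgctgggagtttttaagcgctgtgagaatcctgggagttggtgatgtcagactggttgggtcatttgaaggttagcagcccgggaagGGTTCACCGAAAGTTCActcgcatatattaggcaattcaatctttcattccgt

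The search allowed for each half-site the consensus AGGTCA, its known variant AGTTCA, another known variant GGTTCA, or the last variant searched, GGGTCA, on either strand. The repeat marked in Rarb is made of GGTTCA and AGTTCA, both on this list, so its presence there was set by the choice of letters. With 5 bases between them the pair occurred in 0.0883% of all promoters, and among the 11 windows of these genes in that of Rarb alone. With 2 bases between them it occurred in 0.174% of all promoters and in none of the 11.

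Counts of calls are given for completeness and nothing is read from them, since the genes were chosen on the same comparisons. A call needed an adjusted p below 0.05 (limma, Benjamini-Hochberg) and a log2 change of at least 1 in size. From Control to Hh-CM, Cyp26b1, Aldh1a7 and Crabp1 met both limits, as did 2.75% of all 10282 genes tested. From Control to Esrrb, Aldh1a7 did, beside 1.47% of all genes. From Control to Esrrb+Hh-CM, Cyp26b1, Aldh1a7 and Crabp2 did, beside 6.23%. Between Hh-CM and Esrrb+Hh-CM, Aldh1a7 and Crabp1 did, beside 1.96%, and between Esrrb and Esrrb+Hh-CM, Cyp26b1, Aldh1a7 and Crabp2 did, beside 4.81%. For the difference between the responses of the vector lines to Hh-CM, for which an adjusted p below 0.05 alone was asked, none of the 4 genes passed and 1.35% of all genes did. The comparisons with Control share its samples. The call of Aldh1a7 from Control to Esrrb was lost on leaving out any of the 4 samples compared.

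**Figure D3:**
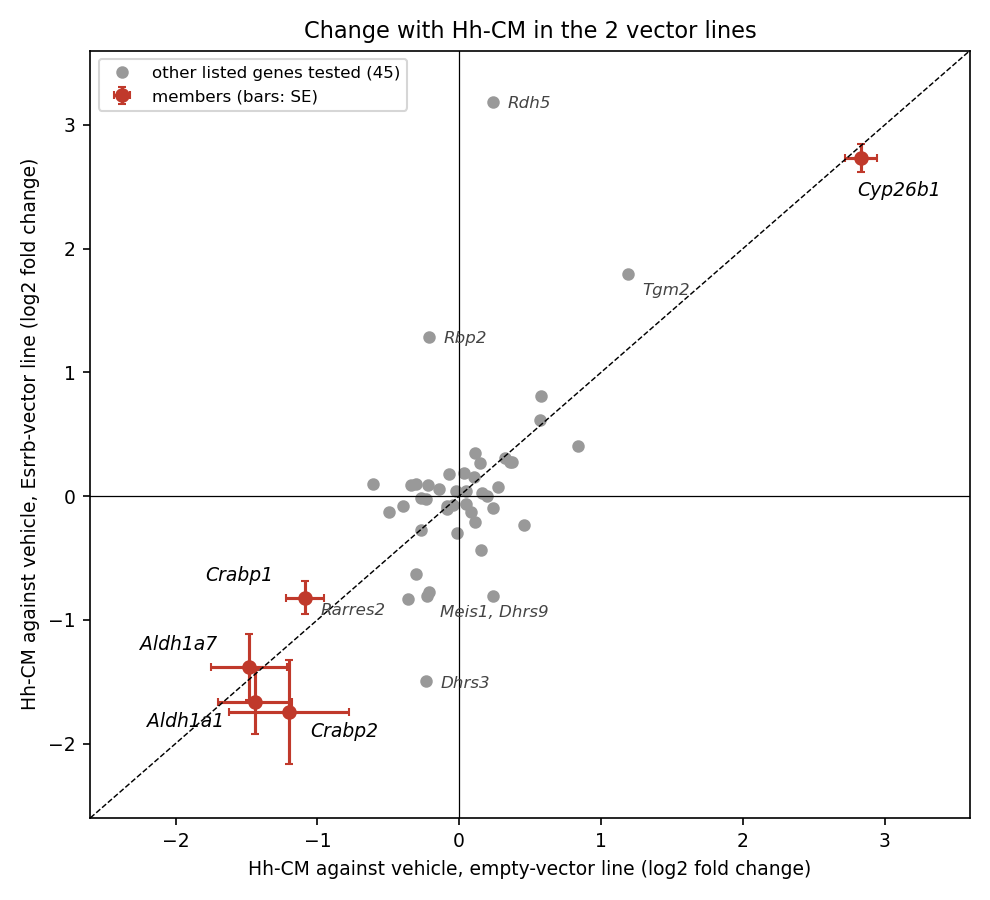
Change with Hh-CM in the empty-vector line (x axis) and in the Esrrb-vector line (y axis), as log2 fold changes of FPKM + 0.1. Red points are the members with their SE, with Aldh1a1 from its longer loci, grey points are the 45 other listed genes tested, and the dashed line marks equal change. Cyp26b1 lies near 2.8 on both axes, and Aldh1a1, Aldh1a7, Crabp1 and Crabp2 lie below 0 on both.

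Genes with similar profiles were sought among all genes tested, by Pearson's r of log2(FPKM + 0.1) over the 8 samples, which share groups and libraries, so the values are a description. Nearest to Cyp26b1 were Slc6a6, a taurine transporter (r = 0.998), and Fbxl2, an F-box protein (r = 0.997). Slc6a6 had 20.1 to 22.4 FPKM without Hh-CM and 52.1 to 59.9 FPKM with it. Fbxl2 was listed at 0 in all 4 samples without Hh-CM and had 3.81 to 4.34 FPKM in those with it. Nearest to Aldh1a7 were Plxnd1, a semaphorin receptor (r = 0.982), and Fabp4, a fatty acid carrier (r = 0.980). Nearest to Crabp1 were Usp12 (r = 0.997) and Nt5dc2 (r = 0.995), and nearest to Crabp2 were Rerg (r = 0.988) and Mterf (r = 0.988).

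Of 71 other genes of retinoid metabolism and response and other aldehyde dehydrogenases, 68 had a value in all samples and 45 passed the filter. From Control to Hh-CM, 1 of the 45 was called, which was higher, beside 2.75% of all genes tested. From Control to Esrrb 2 were called, 1 higher and 1 lower, beside 1.47%. In each of the other 3 comparisons 1 was called, which was higher. Of all genes tested, 6.23% were called from Control to Esrrb+Hh-CM, 1.96% from Hh-CM to Esrrb+Hh-CM and 4.81% from Esrrb to Esrrb+Hh-CM. Nothing is read from these counts, or from those by role below, which rest on few genes. The median log2 change of the 45 genes lay between -0.04 and 0.04 in these 5 comparisons, where the median over all genes tested lay between 0.04 and 0.08.

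By role, the genes for retinol uptake, transport and storage (3 of 9 tested) gave 1 call, that of Rbp2 from Control to Esrrb. Genes that interconvert retinol and retinal (11 of 17 tested) gave no call in the 5 comparisons as fitted here, though the study lists Dhrs3, described below. Rdh10, which makes retinal from retinol, had 6.20 and 6.58 FPKM in Control and 10.9 and 12.1 FPKM in Hh-CM, with an adjusted p of 0.00212 (limma) and a log2 change of 0.83 ± 0.08 (SE) that stayed under the limit of 1. The receptors and their coregulators (11 of 12 tested) also gave no call. Rara lay between 17.8 and 23.8 FPKM, Rarg between 36.1 and 45.6, Rxra between 28.0 and 35.2 and Rxrb between 19.1 and 23.7. Fabp5, the other carrier of retinoic acid, had 123 and 116 FPKM in Control and 89.6 to 99.9 FPKM in the other samples. The 12 of 15 other aldehyde dehydrogenases tested gave no call, and of the 4 other genes of retinoic acid synthesis and degradation none was tested. Aldh8a1, Cyp26a1 (0.232 FPKM or less) and Cyp26c1 lay under the filter, and Cyp1b1 had a matched locus in 1 sample, so its level is not known.

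Genes known to respond to retinoic acid (7 of 13 tested) held the remaining calls, and did not move as a group. Tgm2, a transglutaminase that retinoic acid induces in many cells (chromosome 2, 157942138 to 157972172), had 11.3 and 11.6 FPKM in Control, 26.2 and 26.3 FPKM in Hh-CM, 6.23 and 5.89 FPKM in Esrrb and 21.5 and 21.1 FPKM in Esrrb+Hh-CM. No 2 groups overlapped. Tgm2 rose with Hh-CM by 1.19 ± 0.05 (SE) on the log2 scale in the empty-vector line (adjusted p = 8.93e-05, limma) and by 1.80 ± 0.05 in the Esrrb line (adjusted p = 2.21e-05). The larger rise in the Esrrb line passed the test of the difference itself (0.61 ± 0.07, adjusted p = 0.0233). That call was lost, with an adjusted p (limma) of 0.0595 to 0.0837, when any sample but Esrrb 1 and Esrrb+Hh-CM 2 was left out.

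Rarres2, the gene of the secreted adipokine chemerin, which retinoids induce in skin (chromosome 6, 48519697 to 48522669), was highest in the Esrrb line. It had 34.3 and 33.7 FPKM in Control, 26.5 and 26.3 FPKM in Hh-CM, 169 and 145 FPKM in Esrrb and 91.6 and 84.9 FPKM in Esrrb+Hh-CM. It rose with the Esrrb vector by 2.20 ± 0.08 (SE) in vehicle (4.59-fold, adjusted p = 9.62e-05, limma) and by 1.74 ± 0.08 in Hh-CM (3.33-fold, adjusted p = 0.000201). Within the Esrrb line it was 1.77-fold lower with Hh-CM, a log2 change of -0.83 that stayed under the limit of 1.

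Rbp2, a retinol carrier of the gut (chromosome 9, 98390956 to 98410190), fell from 1.06 and 1.47 FPKM in Control to 0.156 and 0.410 FPKM in Esrrb, that is from 8 and 13 reads to 1 and 3. Its log2 change of -1.90 ± 0.47 (SE) had an adjusted p of 0.0454 (limma), which rose to between 0.0505 and 0.173 when any sample but Esrrb+Hh-CM 1 was left out, so the call rested on few reads.

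**Figure D4:**
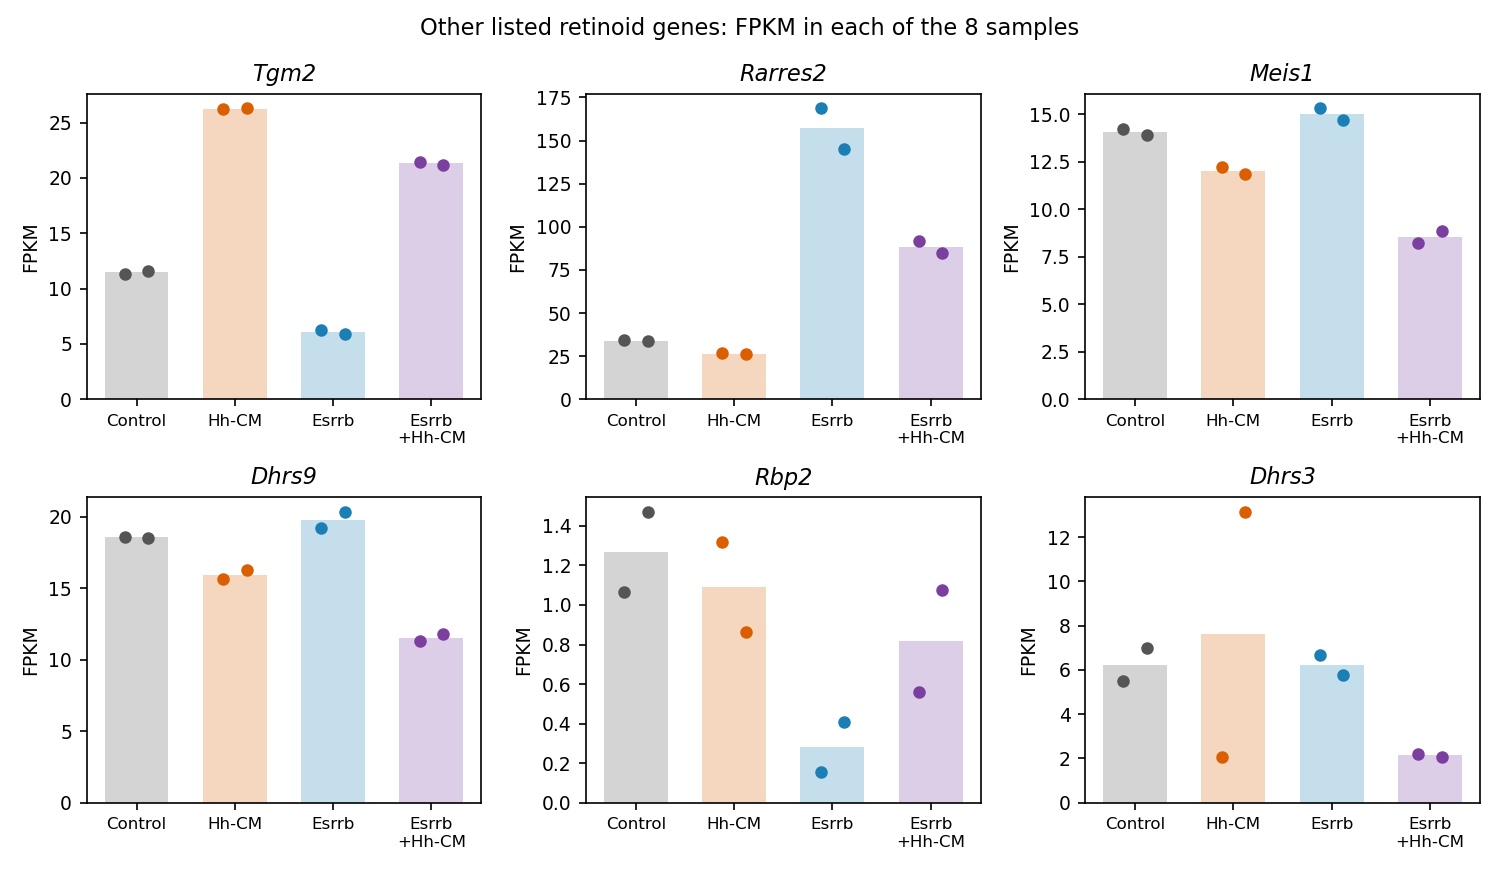
FPKM of Tgm2, Rarres2, Meis1, Dhrs9, Rbp2 and Dhrs3 in each of the 8 samples, with linear axes from 0, points for samples and bars for means of 2. Tgm2 is above 21 FPKM in all 4 samples with Hh-CM, Rarres2 is above 84 FPKM in all 4 samples of the Esrrb line, and the Hh-CM samples of Dhrs3 lie apart.

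The cofactor gene Meis1 and the retinol dehydrogenase Dhrs9 were lower with Hh-CM, more so in the Esrrb line. Meis1 (chromosome 11, 18780433 to 18918961) had 14.2 and 13.9 FPKM in Control, 12.2 and 11.8 FPKM in Hh-CM, 15.3 and 14.7 FPKM in Esrrb and 8.20 and 8.84 FPKM in Esrrb+Hh-CM. The difference between its responses was -0.58 ± 0.08 (SE) on the log2 scale (adjusted p = 0.0399, limma). Dhrs9 (chromosome 2, 69218502 to 69242590) had 18.6 and 18.5 FPKM in Control, 15.7 and 16.3 FPKM in Hh-CM, 19.2 and 20.4 FPKM in Esrrb and 11.3 and 11.8 FPKM in Esrrb+Hh-CM, and its difference was -0.56 ± 0.07 (adjusted p = 0.0334). Both calls were lost when any sample but Esrrb+Hh-CM 2 was left out, with an adjusted p (limma) of 0.0668 to 0.119 for Meis1 and of 0.0683 to 0.106 for Dhrs9. The end of the Dhrs9 locus differed between samples.

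A pair of other genes moved between samples of the same group. Dhrs3, which returns retinal to retinol and responds to retinoic acid, had 2.07 FPKM in Hh-CM 1 and 13.2 FPKM in Hh-CM 2, against 2.22 and 2.05 FPKM in Esrrb+Hh-CM, 5.49 and 6.98 FPKM in Control and 6.67 and 5.78 FPKM in Esrrb. Rdh5 had 110 to 144 FPKM in Control 2, Hh-CM 2 and Esrrb+Hh-CM 2, where its locus took in the next one, and 0.591 to 1.15 FPKM in the other 5. Both were chosen for mention after their values were seen, and neither was called in the fit used here. The study itself, with Cuffdiff on gene models merged over samples, lists Dhrs3 as lower with Hh-CM in the empty-vector line. The part of the locus bounds in this disagreement was not tested. For the same comparison the study also lists Cyp26b1 and Tgm2 as higher and Aldh1a1, Aldh1a7 and Crabp1 as lower, the directions given above. It names Aldh1a7 among the genes that Hh ligand or Esrrb altered.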

How the data were processed

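RNA-seq libraries (TruSeq Stranded mRNA kit, Illumina sequencing) of 8 NIH3T3 samples were processed by the authors with Bowtie2 and TopHat2 against mm9 and with Cufflinks in each sample by itself. The deposited values are FPKM per locus, named RPKM in the study, and only FPKM, its bounds, status and position were used. Cufflinks set locus bounds per sample, so a gene can merge with a neighbour in some samples. The numbers of reads were not used as counts in any test.

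Each gene of the mm9 annotation (GENCODE M1) took the locus with the best overlap, of the whole gene first and of a transcript's span otherwise, at 0.5 or more. The step of the Cuffdiff comparison needs aligned reads and was not repeated. Instead, log2(FPKM + 0.1) was fitted with limma 3.58.1 in R 4.3.3, with 4 group means over all 8 samples and a variance trend, on 10282 genes. The 5 comparisons and the interaction were adjusted by Benjamini-Hochberg over these genes. With 2 samples a group, an exact permutation test of a single gene cannot go below 0.333. The p-values measure the spread between these samples, which may be technical. Fold changes on this scale understate those of low genes.

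The members and the gene lists were chosen with earlier results of these data known. Named were the members, every other listed gene past a call, and the 2 genes nearest to each member tested. Rdh10, Rara, Rarg, Rxra, Rxrb, Fabp5, Cyp26a1, Dhrs3 and Rdh5 fall outside this rule and were named after their values were seen. Deviations of samples with the same number correlated at -0.0464 to 0.0802 over 6 pairs of groups. This value over all genes cannot tell whether same-numbered samples shared a transfection, so the main fit took them as unpaired. Read numbers were accepted within 0.05 of a whole number. Motifs were searched in RefSeq promoters (GRCm38.p6), in the 250 bases before the start.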

Additional observations from a re-analysis of the deposited data

Results flagged for a closer look

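Among the 45 other listed genes tested, 3 differed between the vector lines in their response to Hh-CM by a test of that difference (limma, adjusted p below 0.05). Of all 10282 genes tested, 1.35% did, and nothing is read from the count of 3. The difference was 0.61 on the log2 scale for Tgm2, -0.58 for Meis1 and -0.56 for Dhrs9. The adjusted p values were 0.0233, 0.0399 and 0.0334, and each call was lost when any of most of the samples was left out singly. Tgm2 was higher and Meis1 and Dhrs9 lower with Hh-CM in both lines.

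Short loci of 218 to 224 bases, used in no comparison above, were listed inside Cyp26b1 on chromosome 6 of mm9, near 84538715 to 84538936. They lie in the first intron of its longer transcript and before the first exon of the shorter one, which reaches to 84538632. Their FPKM was 35.9 in Hh-CM 2, 46.1 in Esrrb+Hh-CM 1, 23.5 in Esrrb+Hh-CM 2 and 1.76 in Esrrb 1, and the other samples, both of Control among them, listed none there. The first 3 values lay above the bounds given beside them in the tables, which were 4.94 to 11.3 in Hh-CM 2, 6.18 to 14.7 in Esrrb+Hh-CM 1 and 2.32 to 8.88 in Esrrb+Hh-CM 2, so these sizes are uncertain.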

How the results depend on the processing

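No call of a member or named gene changed direction under the alternatives tried. Changes of members that met no limit and lay near 0 did change sign on leaving out 1 sample, as given above for Crabp1 and Crabp2, and so did Cyp26b1 between Hh-CM and Esrrb+Hh-CM (0.05 without Hh-CM 2). Of all genes, 178, 88 and 124 were called with a pseudocount of 1 from Control to Hh-CM, from Control to Esrrb and from Hh-CM to Esrrb+Hh-CM, and 185, 70 and 109 with FPKM of at least 1 in every sample. By adjusted p alone they were 1850, 1686, 3608, 1957 and 2408 in the order Control to Hh-CM, to Esrrb and to Esrrb+Hh-CM, Hh-CM to Esrrb+Hh-CM and Esrrb to Esrrb+Hh-CM, and the other listed genes were 14, 12, 19, 13 and 12. Without a variance trend 83 genes passed the interaction.

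Of the members, from Control to Esrrb 0 were called with a pseudocount of 1, with no filter, with the filter in every sample and with the replicate block, and 2 by adjusted p alone. From Control to Esrrb+Hh-CM 1 was called with the filter in every sample. From Hh-CM to Esrrb+Hh-CM 1 was called in these 4 settings and with only the compared groups, and from Esrrb to Esrrb+Hh-CM 1 in the first 3. Among the other listed genes, from Control to Esrrb 1 was called with a pseudocount of 1, the stricter filter, the replicate block and covering loci (a setting added after seeing the data). From Control to Esrrb+Hh-CM 2 were called with the block, the compared groups only, rescaled FPKM and covering loci, from Hh-CM to Esrrb+Hh-CM 2 with no filter and with covering loci, and from Esrrb to Esrrb+Hh-CM 2 with the compared groups only.

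The replicate block, which treats same-numbered samples as paired, gave 53 interactions among all genes, against 139 without it, and 0 among the other listed genes, against 3, with an adjusted p of 0.066 for Tgm2 and Dhrs9 and 0.092 for Meis1. Leaving out 1 sample at a time gave, in the order above, 258 to 288, 140 to 162, 630 to 662, 182 to 225 and 484 to 521 genes called, and 61 to 173 for the interaction. For the members these were 2 to 3, 0 to 1, 2 to 3, 0 to 2, 1 to 3 and 0, and for the other listed genes 1 to 2, 1 to 3, 1 to 2, 1 to 2, 1 to 2 and 0 to 4. The lone sample left in a group was assumed to vary like the others. From Esrrb to Esrrb+Hh-CM 1 member was called without Esrrb 2, and from Hh-CM to Esrrb+Hh-CM 1 without Hh-CM 1 or Esrrb+Hh-CM 2 and 0 without Esrrb+Hh-CM 1. The interactions of Meis1 and Dhrs9 were lost without any sample but Esrrb+Hh-CM 2, and that of Tgm2 without any but Esrrb 1 and Esrrb+Hh-CM 2. The causes of these shifts were not tested. Depth limits what can be said of Aldh1a3, Rarb and Stra6, at 15 reads or fewer where reads could be recovered.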
